A study of Mus musculus with 9 samples.

Results

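Immediate early genes are the first genes that cells transcribe after a growth factor, serum or stress signal, and most of their products are transcription factors. The 10 genes Jun, Junb, Jund, Fos, Fosl2, Egr1, Ier2, Ier3, Klf6 and Srf were chosen by name from the 23366 rows of a table of read counts per gene, and a row was found for each. RNA had been sequenced from mouse embryonic stem cells, the pluripotent cells of the early embryo kept in culture, in 2 groups of 3 libraries. The Sirt6-KO cells lack Sirt6, a gene for a histone deacetylase, and the WT cells are wild type. Both groups share the strain (129 SvJae F1), the passage (21) and the medium, fetal bovine serum with leukaemia inhibitory factor (LIF), which keeps the cells undifferentiated. The labels give neither the deleted part of Sirt6 nor the number of knockout clones, and they do not say whether replicates were separate cultures, so the spread behind the p-values is that of these libraries alone and may be technical. The 3 libraries of wild-type cells deprived of glucose were not analysed here.

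At many immediate early genes, RNA polymerase II starts transcription and then waits a short way inside the gene until a signal releases it, a state called promoter-proximal pausing. The series title ties SIRT6 to this step. Proteins of the JUN and FOS families pair to form the factor AP-1. JUN proteins can pair with each other or with FOS proteins, whereas FOS proteins need a JUN partner. SRF binds the CArG box, a DNA element found in the control regions of immediate early and cytoskeletal genes, and works with cofactors of the ELK and MRTF families that respond to ERK kinases and to actin. In embryonic stem cells, ERK signalling is known to push cells out of the undifferentiated state.

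RefSeq promoter sequences (build GRCm38.p6) matched 8 of the 10 genes by symbol, and the 250 bases before each annotated start were searched. Egr1 and Ier2 had no match and were not searched, nor were bases further upstream in any gene. The windows of Jun and Klf6 are shown because both hold the element TGACNTCA, that of Srf because it holds 2 CArG boxes, and that of Ier3 because this gene had the largest fold change between the groups. Each is written from 5′ to 3′ on the strand of the gene, with TGACNTCA and CArG matches in capitals. The reads had been mapped to another build, so these coordinates do not describe the counts.
Ier3 (chr17:35821463-35821712, plus strand): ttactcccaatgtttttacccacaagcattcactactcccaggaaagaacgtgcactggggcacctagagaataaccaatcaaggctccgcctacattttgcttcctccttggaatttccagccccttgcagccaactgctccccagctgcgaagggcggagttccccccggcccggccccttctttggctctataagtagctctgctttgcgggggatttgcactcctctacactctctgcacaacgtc
Jun (chr4:95052223-95052472, minus strand): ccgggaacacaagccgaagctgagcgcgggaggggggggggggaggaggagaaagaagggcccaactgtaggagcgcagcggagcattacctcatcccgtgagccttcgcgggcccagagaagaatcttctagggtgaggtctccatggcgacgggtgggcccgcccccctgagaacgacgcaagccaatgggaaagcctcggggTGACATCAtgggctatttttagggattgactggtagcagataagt
Klf6 (chr13:5861239-5861488, plus strand): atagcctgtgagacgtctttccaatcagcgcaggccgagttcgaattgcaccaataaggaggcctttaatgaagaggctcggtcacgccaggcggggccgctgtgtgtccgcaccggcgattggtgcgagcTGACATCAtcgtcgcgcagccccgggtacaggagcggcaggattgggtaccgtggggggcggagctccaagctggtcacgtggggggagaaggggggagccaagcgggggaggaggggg
Srf (chr17:46556163-46556412, minus strand): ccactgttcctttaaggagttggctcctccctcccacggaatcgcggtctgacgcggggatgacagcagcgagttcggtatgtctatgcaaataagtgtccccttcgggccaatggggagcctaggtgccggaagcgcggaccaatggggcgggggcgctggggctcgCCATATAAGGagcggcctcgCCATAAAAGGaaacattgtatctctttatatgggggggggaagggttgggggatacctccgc

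In the windows of Jun and Klf6 the element read TGACATCA, at 45 to 38 bases before the start of Jun and at 119 to 112 bases before that of Klf6. The CArG boxes of Srf read CCATATAAGG, at 82 to 73 bases before the start, and CCATAAAAGG, at 62 to 53 bases. Both strands were searched, and none of these matches overlapped another. Among 32851 RefSeq windows of the same length, 7.49% held TGACNTCA and 1.47% a CArG box. TGANTCA, an element that AP-1 binds, was in 6.75% of windows and in 0 of the 8 members' windows. TATAAA was in 12.4% of windows and in those of Fos and Srf. CCAAT was in 33.8% of windows and in 5 of the 8 (Jun, Junb, Ier3, Klf6 and Srf), and GGGCGG was in 32.7% of windows and in 6 of the 8. These matches describe the letters in each window and show nothing about binding. The elements were chosen with the sequences in view.

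The targeted gene followed the labels. Sirt6 had 12, 6 and 6 counts in the Sirt6-KO libraries, against 348, 341 and 342 in the WT libraries. The libraries held 20107037 to 29267115 counts each. The Sirt6-KO libraries stood further apart than the WT libraries: a chi-square test of counts between 2 libraries of a group gave 20.8 to 87.6 per degree of freedom in Sirt6-KO, against 3.73 to 11.2 in WT. Of 10 markers of embryonic stem cells, all were tested, 3 were higher and 4 lower in Sirt6-KO (2 lower without WT replicate 3 or Sirt6-KO replicate 2). Over all tested genes, 27.9% were higher and 27.8% lower. The summed level of the 10 markers was 6593 to 8179 CPM in Sirt6-KO and 6279 to 6854 CPM in WT. CPM relates the count to the size of the library, here scaled by the trimmed mean of M values (TMM).

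In Sirt6-KO cells, 6 of the 10 immediate early genes were higher, 1 was lower and 3 did not pass the test. Ier3 rose most, followed by Jun, Klf6, Egr1, Fos and Srf, and Ier2 fell. The test was edgeR's quasi-likelihood test over all 14988 genes that passed the filter on low counts, with a Benjamini-Hochberg adjusted p under 0.05, and all 10 genes passed that filter. The comparison was broad, since 55.7% of tested genes were called, 27.9% as higher and 27.8% as lower. Against these shares, 7 of the 10 were called, 6 as higher and 1 as lower; with 10 genes chosen by name, this is a description. The median log2 fold change of the 10 was 0.74, against 0.01 over all genes tested. In the authors' deposited table, 7 of the 10 passed an adjusted p of 0.05, with a background there of 45.8% of 18300 genes. Sirt6-KO and WT values were fully apart for 8 of the 10 genes, 6 higher and 2 lower in Sirt6-KO, where 63.2% of all tested genes were fully apart.

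**Figure D1:**
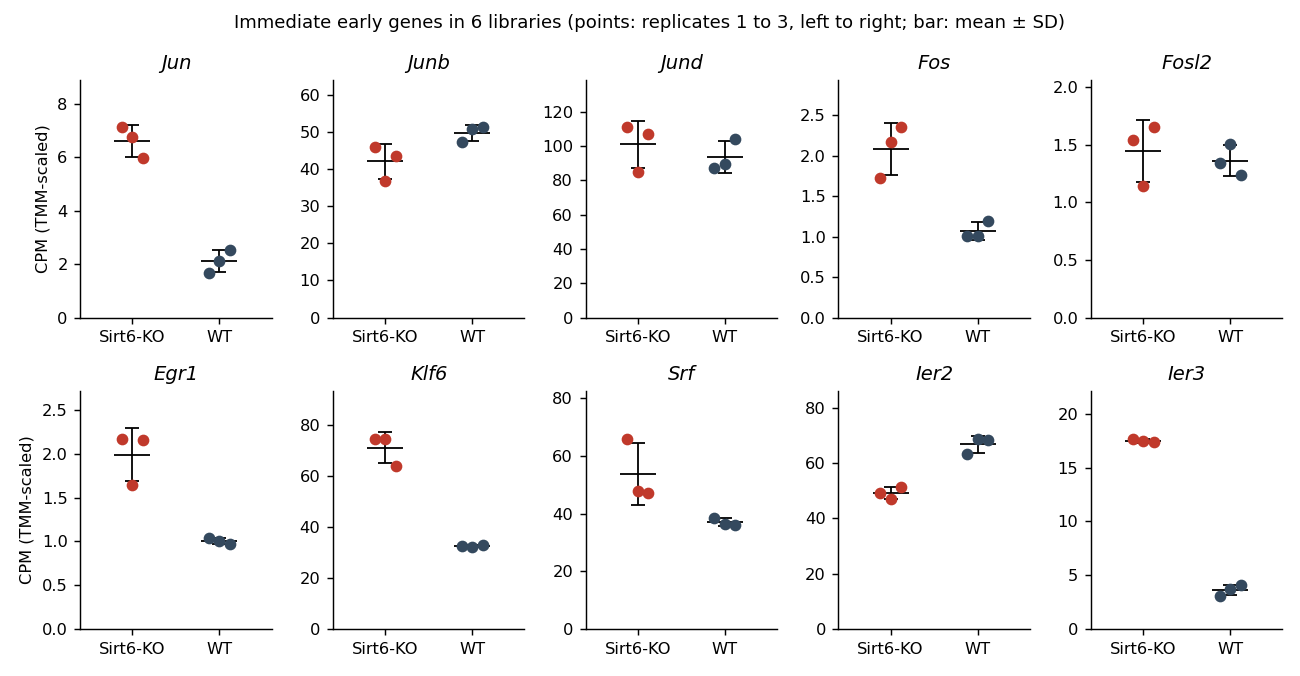
Level of each gene in CPM (y axes start at 0) in the 3 Sirt6-KO libraries (red, left) and the 3 WT libraries (dark blue, right), with the mean and SD as bars. The groups overlap for Jund and Fosl2. As a ratio they are furthest apart for Ier3, at 17.5 ± 0.170 CPM in Sirt6-KO and 3.62 ± 0.503 CPM in WT.

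Jun, which encodes the best known JUN protein and can activate its own promoter, had 7.12, 6.76 and 5.96 CPM in the Sirt6-KO libraries, against 1.68, 2.13 and 2.51 CPM in the WT libraries. Every Sirt6-KO library was above every WT library, and the means were 6.61 ± 0.593 and 2.11 ± 0.418 CPM (SD, n = 3 each). The log2 fold change was 1.65 ± 0.17 (SE), 3.15-fold, with an adjusted p of 1.71e-05 (edgeR). The gene lies among the less expressed ones, with 45 to 65 counts per WT library. The antisense gene Junos overlaps Jun in the GENCODE annotation. Whether reads were counted by strand is not stated, so reads from the 2 cannot be told apart.

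Neither of the other JUN genes passed the test. Junb, whose product often opposes JUN, had 46.0, 36.8 and 43.4 CPM in the Sirt6-KO libraries, against 47.3, 50.8 and 51.3 CPM in the WT libraries. The Sirt6-KO values lay below the WT values with no overlap, but the difference missed the threshold (log2 fold change -0.24, 95% interval -0.48 to -0.01, adjusted p = 0.0733, edgeR; the unadjusted p was 0.0437). It passed without Sirt6-KO replicate 1 (adjusted p = 0.00912) and without Sirt6-KO replicate 3 (0.0302), but not without Sirt6-KO replicate 2 (log2 fold change -0.15, 0.264), without each of the WT replicates (0.120 to 0.189) or with total counts as the scaling (-0.12, 0.414). Junb overlaps Prdx2, a peroxiredoxin gene on the other strand, in the GENCODE annotation, and Prdx2 had 20168 counts over the Sirt6-KO libraries and 19328 over the WT libraries, so that the values of Junb are uncertain.

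Jund, the JUN gene that many resting cells express at a steady level, had 111, 85.1 and 107 CPM in the Sirt6-KO libraries, against 87.1, 89.8 and 104 CPM in the WT libraries. The groups overlapped. The log2 fold change was 0.11 with a 95% interval of -0.16 to 0.38 (adjusted p = 0.472, edgeR), which ends below the interval of Jun, 1.27 to 2.04. The antisense gene Gm11175 overlaps Jund on the other strand in the GENCODE annotation.

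Jund was the main JUN transcript in each library. Per kilobase of exon, it made up 70.6%, 69.4% and 71.2% of the summed JUN family level in the Sirt6-KO libraries, against 66.2%, 65.2% and 68.2% in the WT libraries. Jun made up 2.37%, 2.88% and 2.08% in the Sirt6-KO libraries, against 0.666%, 0.810% and 0.860% in the WT libraries. Although Jun rose more than any other gene of the 2 AP-1 families tested, it stayed a small part of the JUN transcripts. The summed JUN level was 94.2, 73.5 and 89.9 CPM per kilobase in the Sirt6-KO libraries, against 78.9, 82.6 and 91.5 CPM per kilobase in the WT libraries, and these ranges overlap.

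**Figure D2:**
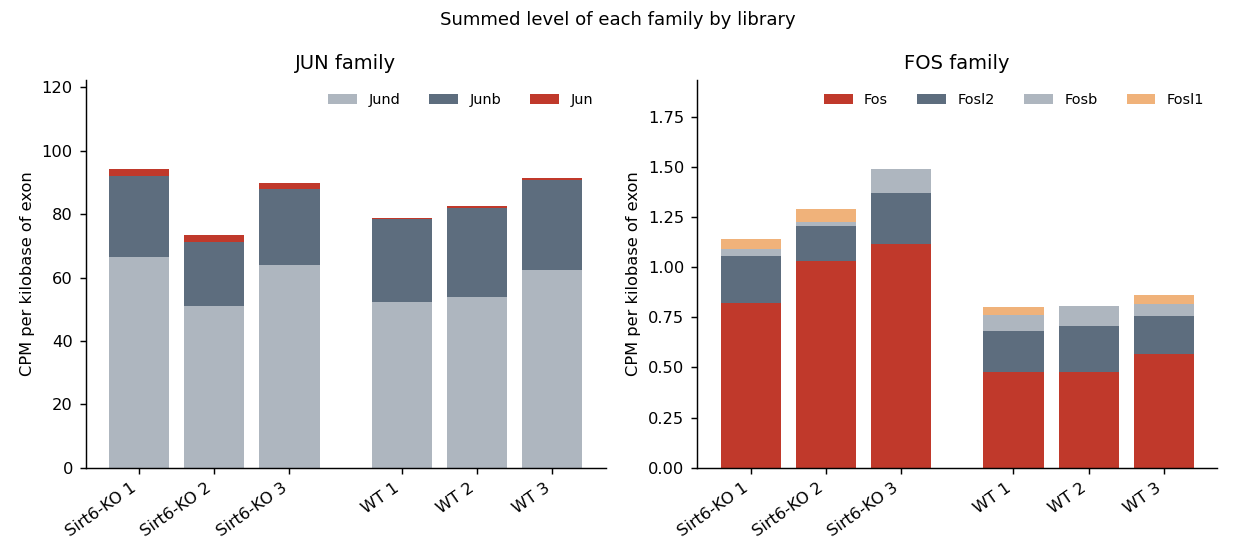
Summed level of the JUN family (left) and the FOS family (right) in CPM per kilobase of exon for each library, Sirt6-KO libraries first and WT libraries after them, with stacked colours for the genes. Jund fills 65.2% to 71.2% of each JUN bar, and the 3 Sirt6-KO bars of the FOS family lie above the 3 WT bars.

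Fos, the prototype of the FOS family, had 1.73, 2.17 and 2.35 CPM in the Sirt6-KO libraries, against 1.006, 1.004 and 1.20 CPM in the WT libraries. These rest on 55, 53 and 47 counts in Sirt6-KO and 27, 24 and 31 counts in WT. The groups did not overlap, and Fos rose 1.92-fold (log2 fold change 0.94 ± 0.22 SE, adjusted p = 0.00345, edgeR). Fosl2, which encodes FRA-2, had 1.54, 1.15 and 1.65 CPM in the Sirt6-KO libraries, against 1.34, 1.51 and 1.24 CPM in the WT libraries. The groups overlapped and the test did not call it (log2 fold change 0.09, 95% interval -0.40 to 0.58, adjusted p = 0.758). It had 28 to 49 counts per library.

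The family's other genes were nearly silent and were not tested. Fosb had 15 counts over the Sirt6-KO libraries and 23 over the WT libraries, and Fosl1 had 6 and 4. The summed FOS level per kilobase was 1.14, 1.29 and 1.49 CPM in the Sirt6-KO libraries, against 0.801, 0.806 and 0.860 CPM in the WT libraries. Each Sirt6-KO library lay above each WT library, while all 6 sums stood far below those of the JUN family. Fos made up 72.0% to 79.7% of the FOS level in the Sirt6-KO libraries and 59.1% to 66.1% in the WT libraries.

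Egr1, which encodes a zinc finger factor and is a common readout of ERK signalling, had 2.17, 1.64 and 2.15 CPM in the Sirt6-KO libraries, against 1.04, 1.004 and 0.966 CPM in the WT libraries. The lowest Sirt6-KO library was above the highest WT library. Egr1 rose 1.98-fold, with a log2 fold change of 0.98 ± 0.21 (SE) and an adjusted p of 0.00250 (edgeR), on 40 to 69 counts per Sirt6-KO library and 24 to 28 per WT library. Of the EGR corepressor genes Nab1 and Nab2, whose products bind EGR1 and damp it, Nab2 fell to 3.96 ± 0.776 CPM in Sirt6-KO, against 14.1 ± 0.145 CPM in WT. Its log2 fold change was -1.81 ± 0.15, and Nab1 was at -0.10 (95% interval -0.40 to 0.20).

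Klf6, a zinc finger factor of the Krüppel-like family, had 74.4, 74.6 and 64.0 CPM in the Sirt6-KO libraries, against 32.4, 32.0 and 32.8 CPM in the WT libraries. The WT libraries agreed closely and the groups stood well apart. Klf6 rose 2.19-fold, with a log2 fold change of 1.13 ± 0.10 (SE) and an adjusted p of 4.62e-06 (edgeR). It had 1278 to 2364 counts per Sirt6-KO library and 765 to 868 per WT library.

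Srf, the serum response factor gene, had 66.0, 47.7 and 47.2 CPM in the Sirt6-KO libraries, against 38.5, 36.5 and 36.0 CPM in the WT libraries. Sirt6-KO replicate 1 was well above the other 2, which still lay above the WT libraries. The log2 fold change was 0.54 ± 0.13 (SE), 1.45-fold, with an adjusted p of 0.00542 (edgeR), and 0.37 without Sirt6-KO replicate 1 (adjusted p = 0.00113). The noncoding gene Gm26904 overlaps Srf on the other strand in the GENCODE annotation.

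Ier3 and Ier2 share a name from their induction but not a function. Ier3, which encodes a small protein linked to cell survival under stress and is no transcription factor, had 17.7, 17.4 and 17.4 CPM in the Sirt6-KO libraries, against 3.09, 3.68 and 4.09 CPM in the WT libraries. The Sirt6-KO libraries were nearly alike, at a ratio of 1.02 between the highest and the lowest, where the median ratio over genes of at least 1 CPM was 1.29 in this group. In the WT libraries the ratio for Ier3 was 1.32, above the median of 1.12 there. Ier3 rose 4.83-fold (log2 fold change 2.27 ± 0.13 SE, adjusted p = 3.10e-07, edgeR). Ier2, whose product is a nuclear protein of growth factor responses, had 49.3, 46.8 and 51.3 CPM in the Sirt6-KO libraries, against 63.1, 68.7 and 68.2 CPM in the WT libraries. It was the 1 gene of the 10 called lower, with no overlap between the groups, a log2 fold change of -0.44 ± 0.09 (SE) and an adjusted p of 0.00197 (edgeR).

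**Figure D3:**
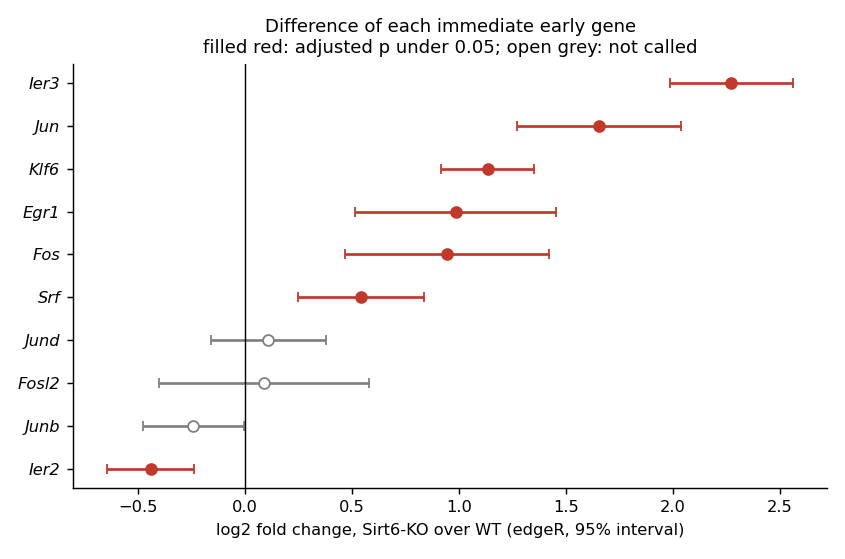
Log2 fold change of each gene, Sirt6-KO over WT, from edgeR with its 95% interval, sorted by size. Filled red points passed an adjusted p of 0.05, and open grey points (Jund, Fosl2 and Junb) did not. Ier3 is highest at 2.27 and Ier2 lowest at -0.44.

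Levels of the 10 genes, compared per kilobase of exon, spanned a wide range in both groups and kept the same order of means. From the highest to the lowest, the order was Jund, Ier2, Junb, Srf, Klf6, Ier3, Jun, Fos, Egr1 and Fosl2. Jund was at 60.5 ± 8.34 CPM per kilobase in Sirt6-KO and 56.2 ± 5.47 in WT, and Fosl2 at 0.221 ± 0.0407 in Sirt6-KO and 0.208 ± 0.0208 in WT (SD, n = 3 each). In the Sirt6-KO libraries the ranges of the neighbours Junb and Srf overlapped, as did those of Klf6 and Ier3. In the WT libraries those of Jun and Fos overlapped, as did those of Egr1 and Fosl2. Jun, Fos and Egr1, all textbook markers of acute stimulation, were among the less expressed genes in WT, at the 22.0, 14.5 and 13.9 percentiles of WT CPM over the tested genes.

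For Jun, Fos and Egr1, the genes with the most similar pattern were sought by the root mean square difference of log2 CPM profiles over the 6 libraries, each centred on its own mean. Among genes of at least 1 CPM outside the 10, Prss50, Tap1 and Stard13 were nearest to Jun, at differences of 0.05, 0.07 and 0.08. Katna1, Rwdd3 and Ly6g6e were nearest to Fos, at 0.05 each. Krt8 and Tmem38a were among the 3 nearest to Egr1, at 0.07 and 0.08. With 2 groups of 3, such likeness follows mainly from a similar difference between the groups.

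Other immediate early genes for transcription factors and related regulators moved both ways. Of 22 listed, 16 were tested, 5 rose (Btg2, Maff, Mafk, Ier5 and Klf2) and 7 fell (Hes1, Myc, Id1, Klf4, Nr4a1, Csrnp1 and Nr4a2), with a median log2 fold change of -0.22. Over all tested genes, 27.9% were called higher and 27.8% lower, and the same shares stand beside the counts of the lists below. Myc, a growth regulator of stem cells, fell to 11.0 ± 1.11 CPM in Sirt6-KO, against 38.7 ± 2.20 CPM in WT. Hes1, a repressor in the Notch pathway, was at 14.2 ± 1.68 CPM in Sirt6-KO and 49.3 ± 1.62 CPM in WT, and Id1, a target of BMP signalling, at 33.3 ± 6.11 and 108 ± 10.6 CPM. Btg2, an antiproliferative gene, rose to 68.4 ± 4.20 CPM in Sirt6-KO, against 28.7 ± 2.28 CPM in WT. Atf3, a stress-induced factor named after its values were seen, was not called (log2 fold change -0.07, 95% interval -0.53 to 0.39). The 6 untested genes were Fosb, Fosl1, Egr2, Egr3, Egr4 and Nr4a3, each with at most 34 counts over a group. The orphan receptor genes Nr4a1 and Nr4a2, named here after their values were seen, fell by 1.29 and 1.99 on the log2 scale.

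Immediate early genes outside the transcription factors and related regulators also moved both ways, with 11 of 25 higher and 9 lower (median 0.09). Gadd45g, a growth arrest gene, rose to 5.81 ± 0.909 CPM in Sirt6-KO, against 0.463 ± 0.192 CPM in WT. Rhob, a small GTPase gene, and Plk2, a kinase gene, rose by 1.40 ± 0.10 and 1.12 ± 0.10 (log2 ± SE). Zfp36l2, an RNA decay gene, fell by 1.48 ± 0.12, whereas its relative Zfp36, whose product degrades the transcripts of many immediate early genes, rose by 0.87 ± 0.14. Among the genes of the MAP kinase phosphatases, which switch MAP kinases off, Dusp1 and Dusp4 rose by 0.52 and 0.68, Dusp6 fell by 1.07, and Dusp2 and Dusp5 were not called (-0.28 and -0.05, adjusted p = 0.431 and 0.827, edgeR). Zfp36 and the phosphatases were picked after their values were seen. The call of Ctgf (0.31) was lost without each of the WT replicates and without Sirt6-KO replicate 2 (adjusted p = 0.0602 to 0.0752).

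Partners and antagonists of AP-1 moved both ways, with 3 of 10 tested genes higher and 5 lower (median -0.49), against 27.9% higher and 27.8% lower over all tested genes. Jdp2, a repressor that pairs with JUN proteins, fell to 1.92 ± 0.142 CPM in Sirt6-KO, against 8.12 ± 0.206 CPM in WT (log2 fold change -2.07 ± 0.14, adjusted p = 9.12e-07, edgeR). Atf4, Atf1 and Creb1, all of the wider bZIP class, fell by 1.21, 0.69 and 0.68. Batf3, Ddit3 and Crem, named after their values were seen, rose by 1.39, 0.84 and 0.69. Of 4 genes of ubiquitin ligases that mark JUN for breakdown, Rfwd2 (COP1) fell by 0.51 ± 0.09 and the other 3 did not pass the test.

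The kinases upstream of these genes also moved both ways. In the ERK list, 2 of 18 genes rose and 9 fell (median -0.30). With total counts as the scaling 4 rose and 6 fell, and 1 rose and 6 fell without WT replicate 1 or without Sirt6-KO replicate 2. The calls of Rps6ka1 and Rps6ka2 as lower were lost under each of these alternatives (adjusted p = 0.0732 to 0.154, edgeR). The adaptor gene Grb2 and the ribosomal S6 kinase gene Rps6ka3 fell by 1.18 ± 0.11 and 1.49 ± 0.11. Of the genes for the kinases MSK1 and MSK2, which phosphorylate histone H3 at immediate early genes, Rps6ka5 rose by 0.75 ± 0.11 and Rps6ka4 fell by 1.59 ± 0.14. The rise of Map2k1 (0.25, adjusted p = 0.0433, edgeR) was lost without each of the WT replicates, without Sirt6-KO replicate 2 and with no filter (adjusted p = 0.0690 to 0.175), and the fall of Fgfr1 (adjusted p = 0.0485) was lost under 7 alternatives at the same threshold (0.0654 to 0.234). In the JNK and p38 list, 5 of 14 tested genes rose and 3 fell (median 0.11), and the count of falls was 0 with total counts as the scaling, 1 without WT replicate 2 and 5 without Sirt6-KO replicate 1. Mapk8, the gene of the kinase JNK1 that activates JUN, rose to 77.5 ± 4.80 CPM in Sirt6-KO, against 36.9 ± 0.229 CPM in WT. The p38 genes Mapk13 and Mapk12 rose by 1.58 ± 0.12 and 0.88 ± 0.14, and the upstream kinase gene Map3k5 by 0.56 ± 0.14. The 3 falls were Map2k7, Map2k6 and Map2k3, by 0.45 ± 0.12, 0.40 ± 0.11 and 0.31 ± 0.10. Mapk14, a p38 gene at 102 ± 9.12 CPM in Sirt6-KO and 114 ± 3.49 CPM in WT, was not called (-0.16, adjusted p = 0.175, edgeR). Without Sirt6-KO replicate 1, Mapk14 was called lower (adjusted p = 0.0177).

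**Figure D4:**
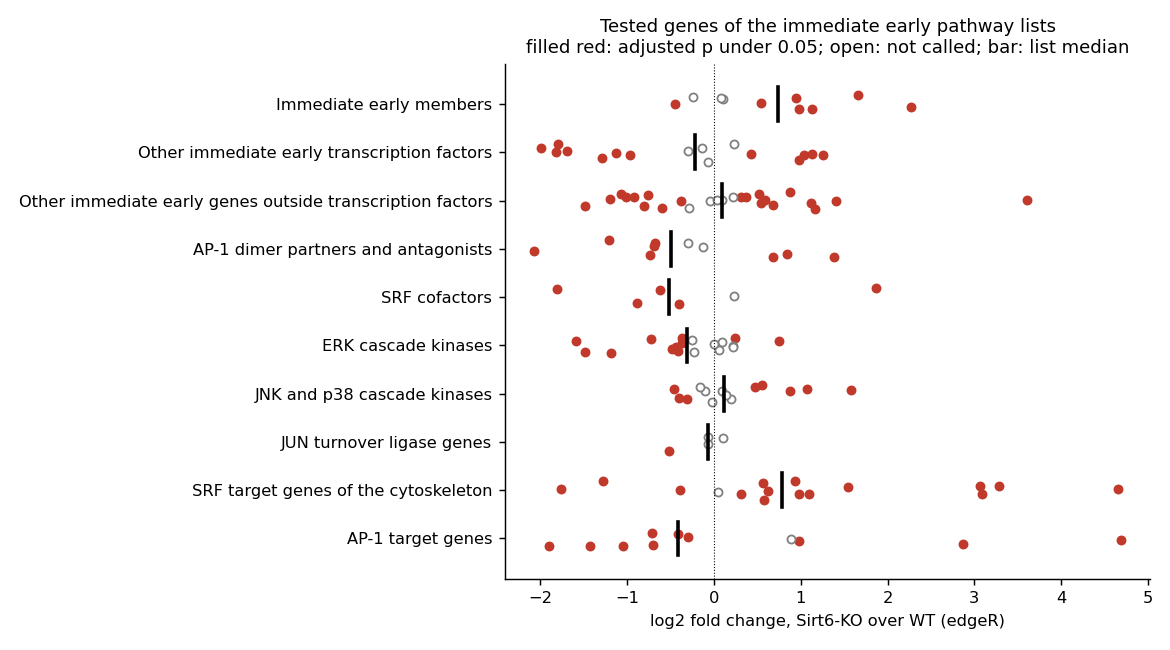
Log2 fold change, Sirt6-KO over WT, of the tested genes of 10 lists, 1 row a list, with filled red points for genes past an adjusted p of 0.05, open points for the others and a bar at the list's median. The bars lie at 0.74 for the 10 immediate early genes, at 0.78 for SRF target genes of the cytoskeleton and at -0.41 for AP-1 target genes.

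Of 6 tested cofactor genes of SRF, 4 fell and 1 rose, with a median of -0.51. Elk3 and Elk4, of the ternary complex factors, fell by 1.80 ± 0.12 and 0.89 ± 0.12, and Mkl1 and Mkl2, genes of the MRTF cofactors, fell by 0.62 ± 0.12 and 0.40 ± 0.15 (log2 ± SE). The call of Mkl2 was lost under 5 alternatives at the same threshold, among them total counts and the absence of WT replicate 1 (adjusted p = 0.0556 to 0.187). Elk1 did not pass (0.24, 95% interval -0.03 to 0.50), though it did with total counts (adjusted p = 0.0429) and without Sirt6-KO replicate 3 (0.0217), and Fhl2, at 0.776 ± 0.252 CPM in Sirt6-KO and 0.210 ± 0.0607 CPM in WT, rose by 1.87 ± 0.39. With total counts, or without Sirt6-KO replicate 3, 2 of these cofactor genes were higher, and with a minimum mean of 1 CPM 0 were. Of 16 tested cytoskeletal target genes of SRF 12 rose and 3 fell, with a median of 0.78. Tagln (SM22) rose to 21.7 ± 3.89 CPM in Sirt6-KO, against 2.21 ± 0.653 CPM in WT, and Cnn2 (calponin 2) to 71.1 ± 6.24 CPM, against 24.3 ± 1.78 CPM. Myl9 and Cnn1, of the contractile apparatus, rose by 3.07 ± 0.22 and 3.09 ± 0.23. Vcl (vinculin) and Flna (filamin A), named after their values were seen, rose by 0.98 ± 0.12 and 1.10 ± 0.16. Tagln2 and Filip1l, also named after their values were seen, fell by 1.27 ± 0.10 and 1.76 ± 0.19. The abundant Actb was lower, by 0.39 ± 0.12, a call lost with total counts (adjusted p = 0.0671) and without WT replicate 1, 2 or 3 or Sirt6-KO replicate 2 (0.0502 to 0.0785), and Actg1 did not pass (0.04).

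Of 11 tested AP-1 target genes, 3 rose (Cd44, Plau and Mt2) and 7 fell, with a median of -0.41. With a minimum mean of 1 CPM, 1 rose, because Cd44 and Plau were then not tested. Among the falls, Hmox1 and Spp1 lost the call with total counts (adjusted p = 0.171 and 0.0676, edgeR). They also lost it without each of the WT replicates (0.0566 to 0.105), and Hmox1 without Sirt6-KO replicate 2 (0.125). Hbegf, a growth factor gene, fell to 11.9 ± 0.582 CPM in Sirt6-KO, against 44.5 ± 1.85 CPM in WT. Ccnd1, the cyclin D1 gene, was at 69.6 ± 5.06 CPM in Sirt6-KO and 144 ± 2.09 CPM in WT, and the receptor gene Plaur at 5.59 ± 0.500 and 15.0 ± 0.726 CPM. Cd44, an adhesion receptor gene, rose, with 61, 43 and 34 counts in the Sirt6-KO libraries, against 1, 4 and 0 counts in the WT libraries.

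Markers of other cell types moved between the same groups. Fewer cells of a type and less RNA per cell cannot be told apart in bulk RNA. Of 13 fibroblast markers, 9 were tested, and 8 rose and 0 fell (1 fell without Sirt6-KO replicate 1), 2 of the 8 (Acta2 and Tagln) also counted among the SRF target genes. Their summed level was 50.6 to 54.2 CPM in the Sirt6-KO libraries and 17.5 to 18.0 CPM in the WT libraries. The collagen genes Col1a1, Col1a2, Col6a1 and Col6a2 had 163, 46, 111 and 250 counts over the Sirt6-KO libraries and 43, 5, 4 and 18 over the WT libraries, and Thy1, a surface marker, had 402 and 106. Fbn1, the fibrillin gene, was not called (-0.15, adjusted p = 0.397, edgeR). The fibroblast markers Lum, Dcn, Postn and Col3a1, too low to be tested, had 0, 5, 5 and 9 counts over the Sirt6-KO libraries and 0, 2, 0 and 8 over the WT libraries. Of 10 primitive endoderm markers 0 rose and 9 fell, with a summed level of 52.3 to 86.8 CPM in Sirt6-KO and 324 to 360.3 CPM in WT. Of 10 trophectoderm markers 7 were tested, and 5 rose and 1 fell. Their sums were 118 to 129 CPM in Sirt6-KO and 76.9 to 79.5 CPM in WT. The keratin genes Krt7, Krt18 and Krt19 had 158, 1973 and 526 counts over the Sirt6-KO libraries and 11, 415 and 105 over WT. The marker that fell was the transcription factor gene Tead4, with 595 counts over the Sirt6-KO libraries and 2220 over the WT libraries. Its log2 fold change was -1.93 ± 0.15 (SE). Tfap2c rose by 1.12 ± 0.11, and Eomes was not called (-0.32, adjusted p = 0.251, edgeR). The transcription factor genes Cdx2, Elf5 and Hand1 were too low to be tested. They had 7, 4 and 11 counts over the Sirt6-KO libraries and 19, 6 and 1 over the WT libraries. The part of these markers in the differences of the immediate early genes was not tested.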

How the data were processed

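The authors' deposited table holds whole-number counts per gene symbol with no normalization. Per the submitters' processing notes, the tools were TopHat2 2.0.10, HTSeq 0.6.1 and DESeq2 and the build mm9; their roles are not stated. The authors' deposited comparison holds, per the file headers, p-values, a score (Wald statistic), log2 fold changes with standard errors and a mean signal per gene.

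Columns were matched to samples by name. The counts were tested with edgeR 4.0.16 in R 4.3.3 (filterByExpr, TMM, glmQLFit, glmQLFTest, two-sided, a mean per group, Benjamini-Hochberg over all genes tested). The SE is the log2 fold change divided by the square root of F, and 95% intervals are unadjusted. Log2 CPM used a prior count of 2. Exon lengths are merged exons of coding transcripts in GENCODE M21 (GRCm38), known for 10 of 10 genes. The lowest members had 24 counts in a library, and their number limits the precision.

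The members and lists were chosen with earlier results of these data known. Named genes were the 10 members, Sirt6, up to 4 called genes per list with the smallest adjusted p, and the 3 nearest profiles of Jun, Fos and Egr1. Others were named after their values were seen. Some genes that this rule names are not reported here.

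On simulated counts (14419 genes), the test recovered 56% of 50 genes changed 1.5-fold and 100% of 50 changed 2-fold. The counts were drawn from the WT means with the same dispersion (spread beyond sampling noise) for every gene. Only genes of at least 1 CPM in WT were changed. The wider spread of the Sirt6-KO libraries and the breadth of the real difference were not simulated. These shares therefore do not give the power of the real comparison. Alternatives were other scalings and filters, DESeq2 1.42.0, limma-voom (limma 3.58.1), each replicate left out, a block for the replicate number, and an adjusted p under 0.01.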

Additional observations from a re-analysis of the deposited data

How the results depend on the processing

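The 6 calls of higher genes (Ier3, Jun, Klf6, Egr1, Fos and Srf) and the call of Ier2 as lower held under all 14 alternatives, and Jund and Fosl2 stayed uncalled under all of them. The count of lower genes among the 10 was 2 in place of 1 with the replicate block, through Junb (adjusted p = 0.0401, edgeR), and it ranged from 1 to 2 with single replicates left out. Without single replicates, 6986 to 9876 of all genes were called. The replicate block called 9352 genes against 8345. Deviations of same-numbered libraries from their group means correlated at 0.21, -0.03 and 0.20, and those of differently numbered libraries at -0.22 to 0.03. These values do not settle whether the numbers pair the libraries. The main fit held no pairing. Total counts in place of TMM moved the median log2 fold change of all genes to 0.13, against 0.01, with 5114 genes higher and 3101 lower (62.3% of calls higher, against 50.1%). Of 128 other genes named or listed that were called, 110 kept the call under all alternatives that tested them and 18 lost it under at least 1. Of 37 that were not called, 24 stayed so and 13 gained a call under at least 1. In both sets 0 reversed; the cause was not tested. Genes under about 1 CPM rest on few counts, and intervals cover the spread of 3 libraries a group.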
